A study of Homo sapiens with 6 samples.

Results

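The DNA methylation machinery was followed in ARPE-19, a human cell line of retinal pigment epithelium labelled wild type, as 9 genes taken by name: UHRF1, UHRF2, DNMT1, DNMT3A, DNMT3B, TET1, TET2, TET3 and HELLS. Each was found by its Entrez gene ID, and all 9 were present among 17945 genes. RNA was sequenced from 3 libraries of cells kept 24 h in DMSO, the solvent control, and from 3 libraries of cells kept 24 h in 320 nM cinobufagin, a toad-venom steroid that inhibits the sodium pump. Whether the 3 libraries came from independent cultures is not stated in the labels, and the spread that p-values rest on here may be technical. All libraries come from 1 cell line, and DNA methylation itself was not measured in the data analysed here.

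DNA methylation in vertebrates is mostly a mark on the cytosine of CpG dinucleotides, and it must be copied after each round of replication. UHRF1 binds the hemimethylated CpGs left behind the replication fork and ubiquitinates histone H3 and the PCNA-associated factor PCLAF, which recruits the copying enzyme DNMT1; HELLS is a chromatin remodeller that opens packed nucleosomes for this step. DNMT3A and DNMT3B set the mark on unmethylated DNA. TET1, TET2 and TET3 oxidise methylcytosine, the first step of its active removal. UHRF2 is the paralog of UHRF1, with similar domains, and does not replace it in maintenance methylation.

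UHRF1, DNMT1 and HELLS, the 3 of the 9 genes whose start-site windows held a strict E2F element, are shown with that element in capitals, beside UHRF2, which held none. E2F factors are the transcription factors that switch on replication genes. The letters searched were TTTGGCGC, TTTCGCGC, TTTGCCGC and TTTCCCGC on both strands, in RefSeq windows from 250 bases before to 50 bases after each annotated start (GRCh38.p14). The stretches run 5′ to 3′ on the gene's own strand, from 150 bases before the start to 30 bases after it.
UHRF1, chr19:4909351-4909530, plus strand: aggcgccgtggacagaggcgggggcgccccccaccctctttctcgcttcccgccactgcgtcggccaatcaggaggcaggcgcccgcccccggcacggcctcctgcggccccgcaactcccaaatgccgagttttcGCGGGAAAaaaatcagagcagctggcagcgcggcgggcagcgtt
DNMT1, chr19:10194924-10195103, minus strand: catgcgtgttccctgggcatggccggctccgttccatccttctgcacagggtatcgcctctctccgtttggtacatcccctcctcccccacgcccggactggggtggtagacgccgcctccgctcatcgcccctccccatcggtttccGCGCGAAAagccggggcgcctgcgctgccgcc
HELLS, chr10:94545638-94545817, plus strand: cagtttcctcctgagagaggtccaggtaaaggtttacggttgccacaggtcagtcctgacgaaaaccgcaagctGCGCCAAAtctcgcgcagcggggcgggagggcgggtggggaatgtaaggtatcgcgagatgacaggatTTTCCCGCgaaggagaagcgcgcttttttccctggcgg
UHRF2, chr9:6413049-6413228, plus strand: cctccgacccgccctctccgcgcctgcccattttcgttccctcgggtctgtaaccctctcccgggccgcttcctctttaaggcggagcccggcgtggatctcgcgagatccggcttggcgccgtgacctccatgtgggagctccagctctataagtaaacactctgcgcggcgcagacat

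The elements lay close to the start sites. With the start base as 1 and the base before it as -1, the element of the UHRF1 window shown began at -14, that of DNMT1 at -2, and those of HELLS at -76 and -8. A match was also found at -160 in the second of the 3 UHRF1 windows. For comparison, 6.89% of the 9644 tested genes with a window held such an element in at least 1 window, as did 13 of 22 genes of a list of replication (S phase) genes. None of the windows of DNMT3A, DNMT3B, TET1, TET2 or TET3 held these letters. A match describes the sequence only, and no match says only that these letters are not in this window. The windows of the 9 genes differ in CpG content, beside a median of 25 CpGs over the windows of tested genes. The DNMT3B window holds 3, the 3 TET1 windows hold 10, 6 and 11, and the 2 TET2 windows hold 13 and 35. HELLS has 22, UHRF2 26, DNMT1 30 and the UHRF1 window shown 36, those of DNMT3A 18 to 46 and those of TET3 33 and 45. The only DNMT3B window, at 32779602 to 32779901, lies inside the gene's annotated span, which begins at 32762385. The stretch before that position was not searched, so neither its letters nor its CpGs are known here. The windows shown for UHRF1, DNMT1 and HELLS also lie inside wider annotated spans.

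Levels are deposited FPKM, which scale fragments to transcript length and library total. The 11599 genes that reached 1 FPKM in 3 or more of the 6 libraries were tested by limma on log2(FPKM + 1), whose moderated standard error is given as SE. Values with ± are the mean and SD over the 3 libraries of a group unless SE is named. Summed FPKM ranged from 534694 to 560721 over the 6 libraries, read totals are not given in the labels or files used, and Pearson's r across the tested genes, which are not independent replicates, was 0.996 to 0.998 within groups and 0.962 to 0.964 between them. The label was checked against markers: KRT8, at 454 FPKM in DMSO, KRT18, TJP1, MITF, OTX2 and the cadherin CDH2 were expressed. The pigment genes PMEL and TYR and the channel gene BEST1 were low, at 2.04, 1.03 and 1.21 FPKM in DMSO. The mature retinal pigment epithelium genes RPE65 and RLBP1 stayed at or below 0.26 FPKM in every library, and the epithelial cadherin CDH1 was listed at 0 in DMSO and reached at most 0.01 FPKM. Among listed markers of immune, endothelial and photoreceptor cells, PTPRC was listed at 0, CD3E, PECAM1, NRL and CRX stayed at or below 0.68 FPKM, and CD68, a lysosomal protein gene, was at 118 FPKM in DMSO and 79.3 in cinobufagin. Summed over the 7 such markers in the table, DMSO libraries held 114 to 127 FPKM and cinobufagin libraries 79.6 to 80.7, and the 12 pigment epithelium and epithelial markers summed to 970 to 1040 and 838 to 845. Of the 8 tested among these 12, 3 rose (OTX2, MITF and CDH2, from 95.5 to 135 FPKM) and 3 fell (KRT8 to 316 FPKM, KRT18 and PMEL), so that the lower sum comes from the keratins. Over all genes tested, 39.2% rose and 28.4% fell. The part of these markers in the results was not tested.

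Transcripts of 7 of the 9 genes were lower after cinobufagin, TET2 was higher, and TET1 was too low to be tested. On the scale of log2(FPKM + 1) UHRF1 fell most, followed by HELLS, DNMT1 and DNMT3A; as a share of the DMSO level DNMT3B, at 59.6%, came before DNMT1 at 63.7% and DNMT3A at 66.3%. The 7 that fell were called at an adjusted p under 0.05, as were 28.4% of all genes tested, while 39.2% rose and 67.7% were called in either direction. DNMT3B entered the test only through its DMSO libraries, so its fall there had to be found and the count of 7 is a description; the other 6 reached 1 FPKM in every library. A fall of 0.5 or more on the log2 scale was called in 11.3% of tested genes, and a fall of 1 or more in 3.34%. On that scale of log2(FPKM + 1) UHRF1 alone of the 9 fell by 1 or more, while HELLS was 2.01-fold lower in FPKM.

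**Figure D1:**
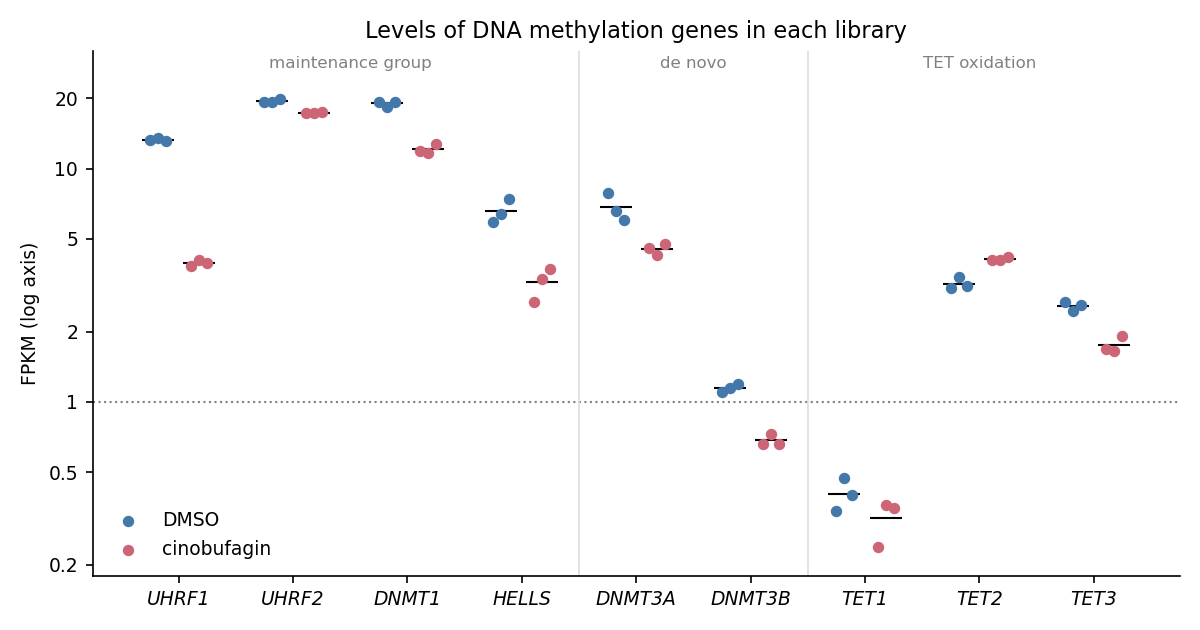
FPKM (log axis) of the 9 genes in each of the 6 libraries (points; 3 per group), with the group mean as a black line and the filter at 1 FPKM as a dotted line. The groups are apart in every gene except TET1, and TET2 is the gene whose cinobufagin libraries lie above DMSO; over all genes tested, groups were apart with cinobufagin lower in 29.6% and higher in 41.2%.

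UHRF1 (gene ID 29128; chromosome 19, 4903080 to 4962154 on GRCh38) stood at 13.23, 13.48 and 13.09 FPKM in the DMSO libraries and at 3.82, 4.07 and 3.93 FPKM in the cinobufagin libraries. The groups were far apart and each was tight, with coefficients of variation of 1.49% and 3.18%. The mean was 3.37-fold lower, at 13.3 ± 0.198 and 3.94 ± 0.125 FPKM, or -1.53 ± 0.06 (SE) on the log2 scale (adjusted p = 1.72e-09 by limma). Only 0.957% of the genes tested had a lower log2 fold change. In level UHRF1 moved from the 54.1 percentile of tested genes in DMSO to the 19.1 percentile in cinobufagin.

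Its paralog UHRF2 (gene ID 115426; chromosome 9, 6413151 to 6507054) fell slightly. It was at 19.28, 19.32 and 19.9 FPKM in DMSO and at 17.26, 17.23 and 17.47 FPKM in cinobufagin libraries. The cinobufagin libraries all lay below the DMSO libraries, at 88.8% of the DMSO mean (log2 change -0.16 with SE 0.05, adjusted p = 0.00897 by limma). The FPKM ratio of UHRF1 to UHRF2 was 0.681 ± 0.0206 in DMSO and 0.227 ± 0.00777 in cinobufagin libraries. An annotated antisense gene, not analysed here, overlaps UHRF2, and the sources used here do not give the strand setting of the counting.

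DNMT1 (gene ID 1786; chromosome 19, 10133345 to 10231286), the maintenance methyltransferase, stood at 19.37, 18.38 and 19.29 FPKM in DMSO and at 11.94, 11.66 and 12.76 FPKM in cinobufagin libraries. The groups did not overlap. The mean fell to 63.7% of DMSO, from 19.0 ± 0.55 to 12.1 ± 0.572 FPKM (log2 change -0.61 with SE 0.05, adjusted p = 1.43e-06 by limma). S1PR2, a receptor gene that overlaps DNMT1 on the same strand in the annotation, was at 1.33 ± 0.0808 and 1.07 ± 0.125 FPKM, short of the threshold (adjusted p = 0.0979 by limma).

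HELLS (gene ID 3070; chromosome 10, 94501434 to 94613905) was at 5.89, 6.39 and 7.43 FPKM in DMSO and at 2.69, 3.37 and 3.73 FPKM in cinobufagin libraries. The lowest DMSO library was above the highest cinobufagin library, but HELLS was among the more variable of the 9 genes, with a coefficient of variation of 16.2% over its cinobufagin libraries. The mean was 2.01-fold lower, at 6.57 ± 0.786 and 3.26 ± 0.528 FPKM (log2 change -0.83 with SE 0.10, adjusted p = 2.06e-05 by limma). TBC1D12, whose annotated span overlaps that of HELLS on the same strand, was at 5.15 and 5.31 FPKM, short of the threshold (adjusted p = 0.653 by limma).

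The de novo enzymes were lower too, from very unlike levels. DNMT3A (gene ID 1788; chromosome 2, 25227855 to 25342590) was at 7.84, 6.6 and 6.03 FPKM in DMSO and at 4.56, 4.27 and 4.75 FPKM in cinobufagin libraries. Its DMSO libraries were spread, with a coefficient of variation of 13.6%, yet all lay above the cinobufagin libraries. The mean fell to 66.3% of DMSO (log2 change -0.50 with SE 0.09, adjusted p = 0.000315 by limma). DNMT3B (gene ID 1789; chromosome 20, 32762385 to 32809356) was at 1.1, 1.15 and 1.19 FPKM in DMSO and at 0.66, 0.73 and 0.66 FPKM in cinobufagin libraries. It lay near the filter of 1 FPKM, which no cinobufagin library reached, and stood at 59.6% of DMSO (log2 change -0.35 with SE 0.08). Because it passed the filter only through the DMSO libraries, its p from the fit that gave this SE is not used. In the fit without the filter, over 16304 genes, its log2 change was -0.35 with an adjusted p of 0.000504 by limma. With a pseudocount of 0.1 in place of 1 its log2 fold change was -0.67, since the larger pseudocount compresses low values. DNMT3L, the catalytically inactive partner of the de novo enzymes in germ cells, was listed at 0 in all 6 libraries.

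The TET genes parted. TET2 (gene ID 54790; chromosome 4, 105145875 to 105279816) was at 3.08, 3.43 and 3.14 FPKM in DMSO and at 4.05, 4.04 and 4.16 FPKM in cinobufagin libraries. Every cinobufagin library lay above every DMSO library, which was so for 41.2% of genes tested. The mean was 1.27-fold higher, at 3.22 ± 0.187 and 4.08 ± 0.0666 FPKM (log2 change 0.27 with SE 0.07, adjusted p = 0.00474 by limma). TET3 (gene ID 200424; chromosome 2, 73986404 to 74108176) went the other way, from 2.68, 2.45 and 2.61 FPKM in DMSO to 1.69, 1.66 and 1.92 FPKM in cinobufagin libraries. It fell to 68.1% of DMSO without overlap (log2 change -0.38 with SE 0.08, adjusted p = 0.00112 by limma), and groups lay apart in this direction in 29.6% of genes tested. TET1 (gene ID 80312; chromosome 10, 68560656 to 68694482) was at 0.34, 0.47 and 0.4 FPKM in DMSO and at 0.24, 0.36 and 0.35 FPKM in cinobufagin libraries. Its groups overlapped, no library reached 1 FPKM, and it was not tested; without the filter on low values it did not pass (log2 change -0.09 with SE 0.05, adjusted p = 0.182 over 16304 genes by limma). An annotated antisense gene overlaps TET2, so its value carries the same limit of strand as that of UHRF2.

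**Figure D2:**
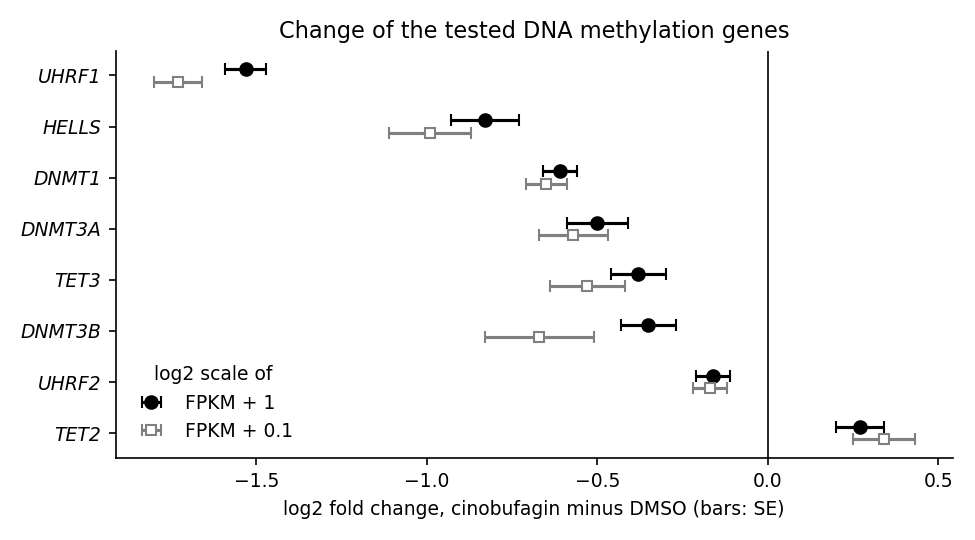
Log2 fold change (cinobufagin minus DMSO) with its SE for the 8 tested genes, on the scale of FPKM + 1 (filled circles) and FPKM + 0.1 (open squares). UHRF1 stands at -1.53 and TET2 at 0.27, and DNMT3B is the gene that moves most with the pseudocount, from -0.35 to -0.67.

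Since FPKM is scaled to transcript length, levels can be set side by side. In DMSO the order was UHRF2 at 19.5 FPKM, DNMT1 at 19.0, UHRF1 at 13.3, DNMT3A at 6.82, HELLS at 6.57, TET2 at 3.22, TET3 at 2.58, DNMT3B at 1.15 and TET1 at 0.403. The library ranges of neighbours overlapped between UHRF2 and DNMT1 and between DNMT3A and HELLS, and the other neighbours were apart. In cinobufagin libraries UHRF2 led at 17.3 FPKM, clear of DNMT1 at 12.1, and was followed by DNMT3A at 4.53, TET2 at 4.08, UHRF1 at 3.94, HELLS at 3.26, TET3 at 1.76, DNMT3B at 0.683 and TET1 at 0.317. TET2 and UHRF1, which differed clearly in DMSO, overlapped here. By mean, UHRF1 thus went from place 3 to place 5, clear below DNMT3A but not separated from TET2.

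Differences in change between members were computed within each library, as the difference of log2(FPKM + 1) between 2 genes, and compared by exact two-sided permutation of 3 against 3 libraries for 10 pairs. The smallest p this design allows is 0.10, so no pair could pass a threshold of 0.05, and after Benjamini-Hochberg adjustment over the 10 pairs the lowest value was 0.143. UHRF1 minus UHRF2 went from -0.52 ± 0.0413 to -1.89 ± 0.0397 (exact permutation p = 0.10). UHRF1 minus DNMT1 went from -0.49 to -1.41, and UHRF1 minus HELLS from 0.92 to 0.22, without overlap between the groups (exact permutation p = 0.10 for each). In all of these differences the cinobufagin libraries lay below every DMSO library. TET2 minus TET3 went from 0.24 ± 0.111 to 0.88 ± 0.0546, again without overlap (exact permutation p = 0.10), and the FPKM ratio of TET2 to TET3 was 1.25 in DMSO and 2.33 in cinobufagin libraries.

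Other pairs were closer. DNMT1 minus DNMT3A was 1.36 ± 0.163 in DMSO and 1.25 ± 0.0249 in cinobufagin libraries, and the groups overlapped (exact permutation p = 0.40). The FPKM ratio of DNMT3A to DNMT1 was 0.359 ± 0.0461 and 0.373 ± 0.00792. DNMT1 minus HELLS differed by 0.221 with overlapping groups (exact permutation p = 0.30). That difference was 0.348 with a pseudocount of 0.1 (exact permutation p = 0.10, the smallest possible). It was 0.13 to 0.299 with a library left out, lowest without cinobufagin replicate 1. The groups of DNMT3A minus DNMT3B overlapped too, with a difference of -0.145 (exact permutation p = 0.40). DNMT1 minus DNMT3B went from 3.22 to 2.96 without overlap (exact permutation p = 0.10). Both of the differences against DNMT3B changed sign with a pseudocount of 0.1, to 0.025 and 0.0966. TET1 minus TET2 changed by -0.363 and TET1 minus TET3 by 0.286, both without overlap (exact permutation p = 0.10 each), but TET1 lay under the filter. With a pseudocount of 0.1 these were -0.614 (exact permutation p = 0.10) and 0.254 (exact permutation p = 0.30).

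Genes that copy DNA, listed as a reference because maintenance methylation acts behind the fork, fell as well. The lists were chosen with earlier results of these data known, so their counts are a description. All 24 listed S phase genes fell, beside 28.4% of all tested genes, with a median log2 fold change of -0.86 against 0.06 over all genes tested. All 10 listed mitosis genes fell too, with a median of -1.47. In bulk RNA, fewer cells in S phase and less RNA per cell cannot be told apart. The mean log2(FPKM + 1) of the S phase genes was 4.36, 4.34 and 4.37 in the DMSO libraries and 3.52, 3.53 and 3.53 in the cinobufagin libraries.

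HELLS differed from that mean by about the same amount in both groups, and UHRF1 lay further below it in each cinobufagin library than in any DMSO library. HELLS minus the S phase mean was -1.44 ± 0.14 in DMSO and -1.44 ± 0.175 in cinobufagin libraries, with overlapping groups (exact permutation p = 1.0). UHRF1 minus the S phase mean was -0.53, -0.49 and -0.55 in DMSO and -1.25, -1.19 and -1.23 in cinobufagin libraries, a further difference of -0.701 (exact permutation p = 0.10, the smallest possible; adjusted over 8 genes, 0.114). DNMT1 moved upward against the S phase mean by 0.22, without overlap (exact permutation p = 0.10). UHRF2, DNMT3A, DNMT3B and TET3 differed from it upward by 0.667, 0.334, 0.479 and 0.452, and TET2 by 1.1, each without overlap (exact permutation p = 0.10 for each). For DNMT3B the difference was 0.233 with a pseudocount of 0.1. The mean hides a spread, since single S phase genes changed by -1.25 (CDC45) to -0.18 (RFC5) on the log2 scale. The changes of DNMT1 (-0.61), DNMT3A (-0.50), DNMT3B (-0.35), TET3 (-0.38) and HELLS (-0.83) lay within that range. Those of UHRF1 (-1.53), UHRF2 (-0.16) and TET2 (0.27) lay outside it.

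**Figure D3:**
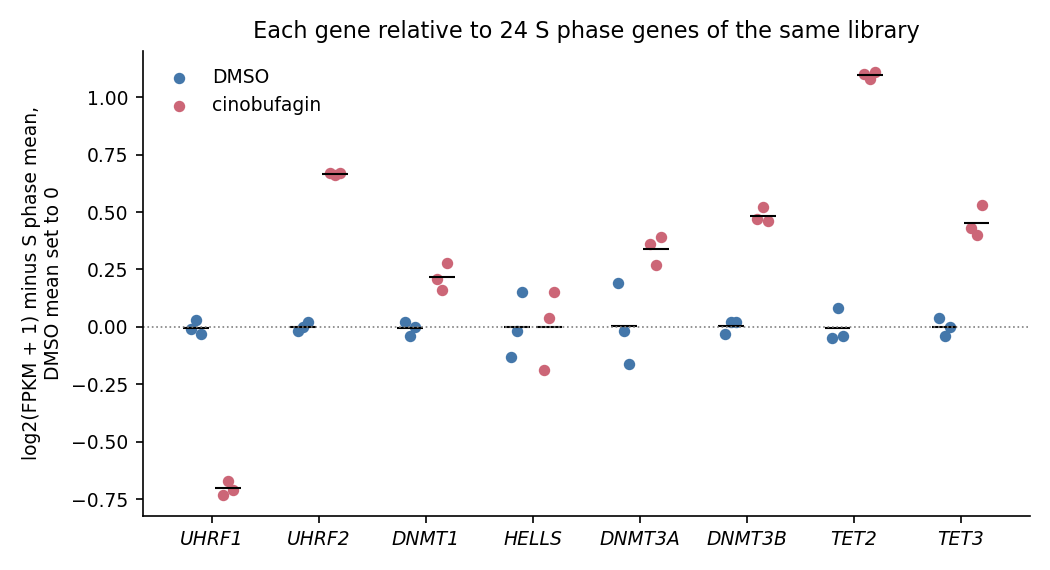
Log2(FPKM + 1) of each tested gene minus the mean over 24 S phase genes of the same library, with the DMSO mean of each gene set to 0; points are libraries (3 per group) and lines are means. UHRF1 lies below 0 in cinobufagin libraries, HELLS is spread around 0 in both groups, and the other 6 genes lie above.

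Partners of maintenance methylation split, with PCLAF, CDCA7, LIG1 and PCNA lower and CDCA7L, USP7 and DMAP1 slightly higher. Of 8 listed partners 3 rose, 4 fell and 1 passed in neither direction (list median of log2 change -0.37, against 0.06 over all genes tested, of which 39.2% rose and 28.4% fell). PCLAF, the PCNA-bound substrate of UHRF1, went from 25.7 ± 1.17 to 7.73 ± 0.134 FPKM (log2 change -1.61 with SE 0.05, adjusted p = 5.83e-10 by limma). CDCA7, the zinc finger partner that brings HELLS to chromatin, went from 4.54 ± 0.419 to 1.49 ± 0.233 FPKM (log2 change -1.15 with SE 0.09, adjusted p = 5.58e-07 by limma). The ligase LIG1, whose methylated form UHRF1 binds, fell by 0.89 and the sliding clamp PCNA fell by 0.63 on the log2 scale. CDCA7L, the paralog of CDCA7, rose by 0.19, the deubiquitinase USP7, which stabilises UHRF1 and DNMT1, rose by 0.16, and the DNMT1-binding protein gene DMAP1 rose by 0.25 on the log2 scale. ZBTB24, a transcription factor gene that activates CDCA7, was at 4.56 and 4.17 FPKM, short of the threshold (adjusted p = 0.317 by limma). Start-site windows of 4 of these 8 genes held the E2F letters.

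Most cofactors of de novo methylation were not called. Of 5 tested, 1 fell and 4 passed in neither direction (list median of log2 change -0.09). Over all genes tested 28.4% fell, 39.2% rose and 67.7% were called in either direction. The gene that fell was NSD2, which writes the H3K36 dimethyl mark that DNMT3A reads, from 33.3 ± 0.456 to 17.6 ± 0.947 FPKM (log2 change -0.88 with SE 0.05, adjusted p = 3.7e-08 by limma). The related NSD1 was at 10.5 and 9.8 FPKM and NSD3 at 17.0 and 16.9 FPKM (adjusted p = 0.185 and 0.871 by limma). Called as lower were 3 of the 5 after quantile normalization, 2 after median centring and 2 without DMSO replicate 1.

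On the side of removal, base excision and TET cofactor genes moved both ways. Of 16 tested, 4 rose, 7 fell and 5 passed in neither direction (list median of log2 change -0.07); over all genes tested 67.7% were called, 39.2% as higher and 28.4% as lower. The isocitrate dehydrogenase genes parted: IDH1, the cytosolic enzyme that makes the TET cosubstrate 2-oxoglutarate, rose from 38.3 ± 1.63 to 61.8 ± 1.44 FPKM (log2 change 0.68 with SE 0.05, adjusted p = 1.35e-07 by limma), while the mitochondrial IDH2 fell by 0.41 on the log2 scale. OGT, the sugar transferase that binds TET proteins, rose by 0.31 and CXXC5, a CXXC zinc finger gene, by 0.35. The base excision gene POLB rose by 0.37, and XRCC1, LIG3, PARP1, SMUG1 and NEIL2 passed in neither direction. TDG, the glycosylase that excises oxidised methylcytosine, was slightly lower (11.9 and 10.5 FPKM, log2 fold change -0.16, adjusted p = 0.0321 by limma). NEIL3, a glycosylase gene, fell by 1.22, the stress gene GADD45B fell by 1.16, NEIL1 fell by 0.53 and the endonuclease APEX1 fell by 0.51 on the log2 scale.

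Among 10 methyl-CpG readers, which bind the mark, 5 rose, 3 fell and 2 passed in neither direction (list median of log2 change 0.16), shares near the 39.2% and 28.4% of all genes tested. ZBTB38, a zinc finger reader, was 35.4 ± 2.59 FPKM in DMSO and 17.4 ± 0.43 in cinobufagin libraries (log2 change -0.98 with SE 0.06, adjusted p = 4.55e-08 by limma), whereas its relative ZBTB4 rose by 0.43. MBD1 rose by 0.35 and MBD4, a reader that is also a glycosylase, by 0.34 on the log2 scale. After median centring 3 readers rose in place of 5, and likewise without cinobufagin replicate 2. Of 16 genes of H3K9 methylation and heterochromatin 4 rose, 8 fell and 4 passed in neither direction (list median of log2 change -0.14, with the same shares over all genes). The methyltransferase SUV39H1 fell by 0.66 and SUV39H2 fell by 0.40, CBX5, which encodes heterochromatin protein HP1 alpha, fell by 0.60, and MPHOSPH8, a subunit of the HUSH silencing complex, rose by 0.46 on the log2 scale. Of these genes 2 rose after quantile normalization and 2 without cinobufagin replicate 1.

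Genes that supply S-adenosylmethionine, the methyl donor, were examined next. Of 7 tested genes 4 rose, 1 fell and 2 passed in neither direction, beside 39.2% that rose and 28.4% that fell over all genes tested (list median of log2 change 0.22). MAT2A, which makes the donor in most tissues, was at 199 ± 9.5 and 204 ± 4.11 FPKM (adjusted p = 0.521 by limma), and AHCY, which clears the by-product that inhibits methyltransferases, fell by 0.44 on the log2 scale. AHCYL2, an AHCY-like gene, rose by 0.72, AHCYL1 by 0.26, MTR, the methionine synthase gene, by 0.22 and MAT2B, the regulatory subunit, by 0.22. The liver-type genes BHMT and GNMT were listed at 0 in all libraries.

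Genes that DNA methylation is known to keep silent were examined as a readout. Of 27 listed germline genes, 20 were in the table, 9 of them were listed at 0 in all 6 libraries, and 1 passed the filter. That gene, the cohesin subunit STAG3, was at 1.11 ± 0.0551 and 1.39 ± 0.21 FPKM, short of the threshold (adjusted p = 0.097 by limma). Every cinobufagin library of STAG3 lay above every DMSO library, as in 41.2% of genes tested. It was called as higher without the mean-variance trend and after quantile normalization. The 20 genes summed to 1.77 to 1.83 FPKM per DMSO library and 1.54 to 2.23 FPKM per cinobufagin library, which overlap. Most of each sum is STAG3, so the sums say little about the other genes. SYCP3, a synaptonemal complex gene, reached at most 0.55 FPKM, and DAZL, DDX4 and MAEL were listed at 0 in both groups. Among the 20 genes in the table other than STAG3, all under the filter, onset of expression at 24 h was thus not detectable at the level these files record.

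Imprinted genes, whose parental alleles differ in methylation, moved both ways. Of 9 tested among 18 listed, 4 rose, 3 fell and 2 passed in neither direction (list median of log2 change 0.10), beside 39.2% and 28.4% of all genes tested. PEG10 rose from 16.9 ± 0.389 to 40.2 ± 1.74 FPKM (log2 change 1.21 with SE 0.05, adjusted p = 2.42e-09 by limma), and its neighbour SGCE, which shares an imprinted start region with it, rose by 0.52. PHLDA2, a growth-restraining gene, went from 12.2 ± 1.15 to 4.11 ± 0.592 FPKM (log2 change -1.37 with SE 0.09, adjusted p = 1.31e-07 by limma), and MEST fell by 0.58 on the log2 scale. The files give totals per gene, so alleles cannot be told apart.

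Genes with the most similar profile were found as those with the smallest root mean square difference of log2(FPKM + 1), centred on the DMSO mean, over the 6 libraries. With 2 groups this mostly picks genes of equal fold change. For UHRF1 they were PADI3 at a distance of 0.0144, SYTL5 at 0.0331 and NME1 at 0.0535. For DNMT1 they were WNT3, SH3BP4 and CD44, at 0.0254 to 0.0266, and for HELLS they were MSH5, PDCD1LG2 and C22orf23, at 0.068 to 0.0735. For TET2 they were ARHGAP32, AASDHPPT and PPP3CA, at 0.0136 to 0.0178. For UHRF2, NR2F2 was nearest at 0.0163, for DNMT3A PRDX5 at 0.041, for DNMT3B SRF at 0.0188 and for TET3 MBOAT7 at 0.0292. None of these 8 genes had another of the 9 among its nearest 3.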

How the data were processed

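Gene expression was measured in 3 DMSO and 3 cinobufagin libraries. The authors deposited FPKM values per gene, to 2 decimals, per the file headers. Bowtie2, RSEM 1.3.1, DESeq2 1.4.5 and build GRCh38.p13 are named, without roles, per the submitters' processing notes. FPKM depends on transcript length and library total, so changes in abundant genes shift all others and the counting error is hidden. Control columns are named mock and were taken as the DMSO libraries of the same number. Entries without a gene ID, 19 in all, were left out. Symbols (17881 genes) and start-site windows came from RefSeq (GRCh38.p14), gene positions from GENCODE 29 (GRCh38).

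Genes reaching 1 FPKM in 3 or more libraries were fitted as log2(FPKM + 1) by limma (3.58.1; R 4.3.3) using a mean-variance trend, no block and Benjamini-Hochberg adjustment over 11599 genes at 0.05. The fit was tested on simulated data. Differences between genes used exact permutation over libraries (scipy 1.17.1). No 2 libraries were identical. The 9 genes and all lists were chosen with earlier results of these data known. The text names the 9 genes, up to 4 called genes with the largest change per list and genes that did not pass where a list is described. It adds the 3 genes most similar in profile to each called gene, named in full for 4 of them. USP7, DMAP1, CDCA7L, APEX1, IDH2, CXXC5, OGT, POLB, TDG, MTR and the overlapping genes S1PR2 and TBC1D12 fall outside this rule. They were named for their roles or positions after their values were seen. Alternatives were a pseudocount of 0.1, a filter of at least 5 FPKM or none, median centring, quantile normalization, no trend, the replicate number as a block, the median of the S phase genes and leaving out each library. Values of some listed genes are not reported here.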

Additional observations from a re-analysis of the deposited data

How the results depend on the processing

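The tested genes other than DNMT3B kept their direction and their side of the threshold under every alternative that gave a value, including leaving out each library. DNMT3B was lower in each as well, by the least after quantile normalization (log2 fold change -0.231). Most of these fits reuse the filter that it passed only through its DMSO libraries, so they cannot serve as support for it. In the fit without the filter its adjusted p was 0.000504 by limma. Left out in turn, the libraries gave log2 fold changes from -1.55 to -1.51 for UHRF1, -0.91 to -0.73 for HELLS and 0.247 to 0.307 for TET2. A filter of at least 5 FPKM removed TET2, TET3 and DNMT3B, so 0 genes of the 9 then rose and 5 fell. UHRF1, HELLS and DNMT3A passed this filter only through their DMSO libraries. Their falls in that fit had to be found and cannot serve as support for them. With a pseudocount of 0.1, DNMT1 minus DNMT3B changed sign to 0.025 and DNMT3A minus DNMT3B to 0.0966. DNMT1 minus DNMT3A was -0.0716 with that pseudocount and -0.193 to -0.0301 with a library left out, and DNMT3A minus DNMT3B ran from -0.233 to -0.0377. The difference of HELLS from the S phase mean lay near 0 and changed sign when DMSO replicate 3 (0.0723) or cinobufagin replicate 1 (0.0942) was left out, and ran from -0.0776 to 0.0942 over the libraries left out. The labels state no pairing of replicate numbers. Deviations from the group mean correlated at -0.049, -0.105 and -0.009 between same-numbered libraries. Centring 3 libraries on their own mean holds such values near 0, so they cannot decide whether libraries were paired. With the replicate block 7690 genes were called against 7849, and 7 of the 9 genes fell. Between 7202 and 7735 genes were called without a library. Low FPKM limits DNMT3B and TET1.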
